A study of Mus musculus with 32 samples.

Results

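The IFIT family consists here of 4 genes, Ifit1, Ifit2, Ifit3 and Ifit3b, which were taken by name from a table of 21829 mouse genes. The cells were EL08-1D2, a mouse mesenchymal stromal line derived from embryonic liver. They were left untreated in 16 libraries and given azacitidine in 16, and the labels name no other agent, genotype or treatment for either group. Azacitidine, a drug for myelodysplastic syndromes, is a nucleoside that is built into nucleic acids in place of cytidine and depletes DNA methyltransferases. The labels give neither its dose nor how long it was applied. Values are UMIs (unique molecular identifiers, which count each captured cDNA molecule once), scaled to counts per 1000000 (CPM). The scaling used a library's total UMIs of mouse genes multiplied by a normalization factor (TMM). All libraries came from a single cell line. The labels do not tie libraries to separate cultures. The p-values below therefore speak only of the spread between these libraries, which may be technical.

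IFIT proteins are built almost wholly from tetratricopeptide repeats, helical motifs that fold into a groove. Their genes are nearly silent in resting cells and are switched on by type I interferon, through a protein complex with IRF9 that binds a response element near the start site, and in some settings by IRF3 without interferon. Ifit1 holds capped RNA whose first nucleotides lack ribose methylation, a mark of many viral messages, and keeps it from being translated. Ifit2 and Ifit3 assemble with other family members on RNA, and mouse Ifit3b is a close copy of Ifit3.

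Totals ran from 818619 to 3210801 UMIs in untreated and from 1226861 to 5039721 in azacitidine libraries. Numbers 1 and 2 untreated and 1, 2 and 4 with azacitidine stood apart. On the first principal component, which took 30.9% of the variance of 9344 genes after removal of group means, they lay at 26.8 to 43.7 and the other libraries at 10.9 or below. Libraries also resembled each other within sets of 4 consecutive replicate numbers (1 to 4, 5 to 8, 9 to 12 and 13 to 16). The labels do not say what these sets are, and values are given by set below.

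The promoters are shown first because 3 of the 4 carry the same element. Each line below gives the 250 bases before the annotated start site from RefSeq (GRCm38.p6, forward strand of chromosome 19). Capitals mark matches to the core of the interferon-stimulated response element, namely GAAA, any 2 bases and GAAA again, which was searched on both strands. All matches lie on the reverse strand and so read TTTC, 2 bases and TTTC here.
Ifit1: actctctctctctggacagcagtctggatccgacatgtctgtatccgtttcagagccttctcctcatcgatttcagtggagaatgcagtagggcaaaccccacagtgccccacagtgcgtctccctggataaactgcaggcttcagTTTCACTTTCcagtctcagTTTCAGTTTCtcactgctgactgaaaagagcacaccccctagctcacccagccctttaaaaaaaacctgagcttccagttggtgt
Ifit3: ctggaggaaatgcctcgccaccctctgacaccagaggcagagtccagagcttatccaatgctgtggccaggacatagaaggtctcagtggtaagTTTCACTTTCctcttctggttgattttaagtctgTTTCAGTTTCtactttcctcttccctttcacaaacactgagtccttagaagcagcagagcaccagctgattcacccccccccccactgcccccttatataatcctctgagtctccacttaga
Ifit3b: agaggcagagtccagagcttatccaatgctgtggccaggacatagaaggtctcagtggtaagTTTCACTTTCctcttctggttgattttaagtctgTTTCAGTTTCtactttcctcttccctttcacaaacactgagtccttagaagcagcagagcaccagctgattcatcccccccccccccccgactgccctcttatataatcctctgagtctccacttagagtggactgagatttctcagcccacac
Ifit2: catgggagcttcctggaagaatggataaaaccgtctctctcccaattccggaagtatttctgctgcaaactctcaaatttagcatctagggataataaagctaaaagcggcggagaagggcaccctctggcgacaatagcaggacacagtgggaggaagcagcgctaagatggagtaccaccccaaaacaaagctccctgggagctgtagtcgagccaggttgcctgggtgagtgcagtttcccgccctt
The Ifit1 stretch covers chr19:34640639-34640888, the Ifit3 stretch chr19:34583279-34583528, the Ifit3b stretch chr19:34607707-34607956 and the Ifit2 stretch chr19:34550444-34550693. Ifit1, Ifit3 and Ifit3b each held 2 matches that did not overlap, one reading TTTCACTTTC and one TTTCAGTTTC. In Ifit1 they began 104 and 85 bases before the start site, in Ifit3 at 156 and 122, and in Ifit3b at 188 and 154. Neither of the 2 annotated windows of Ifit2 held a match, which says only that these letters are absent from these bases. Counting 50 bases after the start site as well, 1131 of 32851 promoter windows (3.44%) held at least 1 match and 74 (0.225%) held 2 or more. The windows of Ifit3 and Ifit3b were alike at 94.53% of 274 aligned positions. CG dinucleotides, the usual target of DNA methylation, numbered 4 in the Ifit1 window, 1 each in those of Ifit3 and Ifit3b, and 10 and 11 in those of Ifit2, against a median of 7 over all windows. No methylation was measured.

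**Figure D1:**
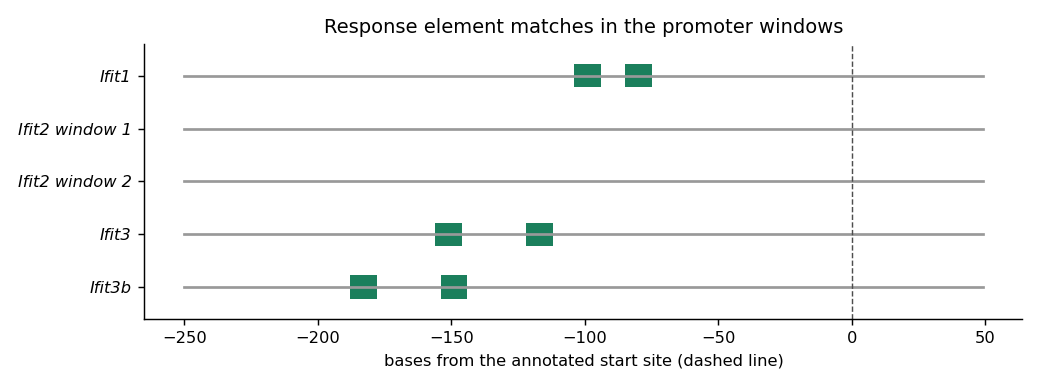
Positions of response element matches (green boxes) in the promoter windows of the 4 genes, in bases from the annotated start site (dashed line). Ifit1, Ifit3 and Ifit3b each carry 2 matches, and both windows of Ifit2 carry none.

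The 4 genes form a cluster on the forward strand of chromosome 19 (mm10, GENCODE M21). Ifit2 (ENSMUSG00000045932) spans 34550694 to 34576419, Ifit3 (ENSMUSG00000074896) 34583531 to 34588731, Ifit3b (ENSMUSG00000062488) 34607970 to 34613401 and Ifit1 (ENSMUSG00000034459) 34640871 to 34650009. On the reverse strand between them lie the related genes Ifit1bl1 and Ifit1bl2, which were too rare to test, with 1 and 4 UMIs in all untreated and 6 and 22 in all azacitidine libraries. The windows of both also held the response element. Ifit1bl2 is annotated up to 34640743, inside the Ifit1 stretch shown above. Its window may therefore hold the same bases as the matches of Ifit1. Of 35 annotated genes within 500 kb, 14 had a row in the table and 8 were tested. The 4 tested genes that are no IFIT genes did not pass the test over all libraries (edgeR). Their log2 changes were 0.52 for Fas, a death receptor (adjusted p = 0.10), 0.11 for Stambpl1, a deubiquitinase, -0.06 for Lipa, the lysosomal acid lipase, and -0.20 for Acta2, smooth muscle actin. The change of Acta2 differed between sets (interaction, adjusted p = 4.6e-06), and in numbers 5 to 8 it was called lower (-0.86, adjusted p = 3.9e-09). Ch25h, an interferon-inducible cholesterol hydroxylase, had 10 UMIs untreated and 34 with azacitidine and was not tested.

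**Figure D2:**
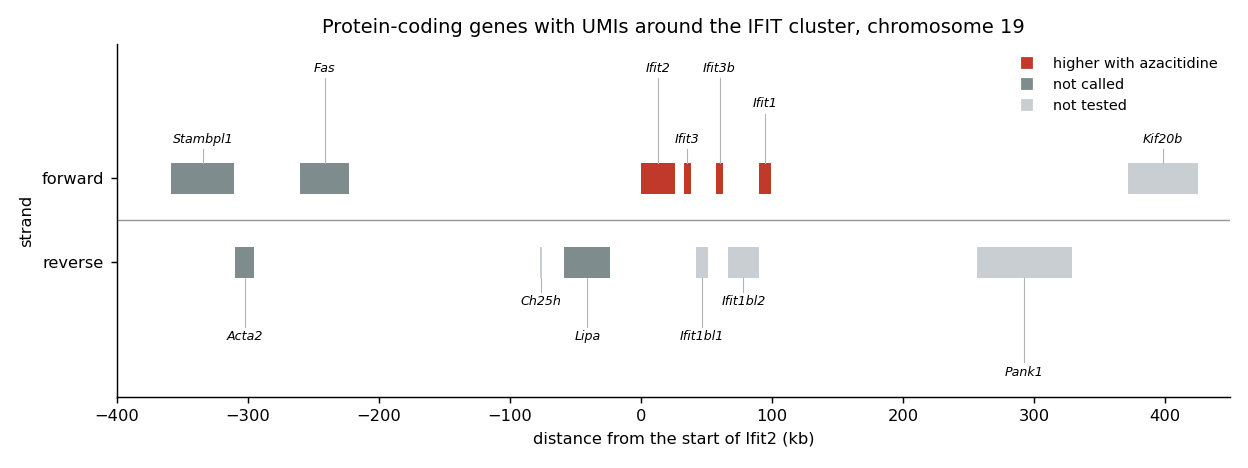
Protein-coding genes with UMIs around the IFIT cluster by strand, in kb from the start of Ifit2. The 4 IFIT genes (red) were higher with azacitidine, Stambpl1, Acta2, Fas and Lipa (dark grey) were tested and not called, and light grey genes were too rare to test.

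All 4 IFIT genes were higher with azacitidine over the 16 against 16 libraries. Ifit1, the sensor of unmethylated caps, lay between 23.9 and 85.8 CPM untreated (median 33.7) and between 67.2 and 268 CPM with azacitidine (median 127). The groups overlapped, but 14 of 16 azacitidine libraries stood above the highest untreated one. Its log2 change was 1.80 (SE 0.21, edgeR, adjusted p = 2.7e-07), a 3.49-fold rise from 42.8 ± 19.9 to 146 ± 59.4 CPM (SD, n = 16). Ifit2, which joins Ifit1 and Ifit3 in complexes and has been linked to cell death, lay between 2.2 and 13.0 CPM untreated (median 3.67) and between 4.92 and 18.8 with azacitidine (median 12.7). In 8 of 16 azacitidine libraries it exceeded every untreated value. It rose by 1.31 on the log2 scale (SE 0.20, adjusted p = 9.7e-06). Ifit2 rests on 132 UMIs over all untreated and 482 over all azacitidine libraries, so its single values are the least precise of the 4.

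Ifit3, which stabilises Ifit1 on RNA in human cells, lay between 20.1 and 93.5 CPM untreated (median 32.2) and between 43.7 and 301 CPM with azacitidine (median 89.2). Its copy Ifit3b lay between 3.44 and 40.8 CPM untreated (median 10.2) and between 11.9 and 120 CPM with azacitidine (median 38.0). For each of them 7 of 16 azacitidine libraries exceeded every untreated one. The log2 changes were 1.65 for Ifit3 (SE 0.31, adjusted p = 0.00046) and 1.78 for Ifit3b (SE 0.34, adjusted p = 0.00063). None of the 4 was higher without overlap, which held for 0.278% of tested genes. For comparison, 3.65% of the 9344 tested genes were called higher, and the median log2 change of all of them was 0.00. By the size of the increase Ifit1, Ifit3b, Ifit3 and Ifit2 ranked 25th, 26th, 33rd and 50th.

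How the sets were treated changed the calls. In limma-voom a common correlation between libraries of a set and group was estimated over all genes (0.32). With it all 4 stayed called, at 1.91, 1.45, 1.73 and 1.85 (adjusted p = 1.9e-07, 0.00037, 0.00045 and 0.0045). The correlation of the IFIT genes themselves was not estimated, so this fit may correct too little for the sets. With UMIs summed over each set of 4 numbers, leaving 4 sums per group, the log2 changes were 1.80, 1.28, 1.64 and 1.75 for Ifit1, Ifit2, Ifit3 and Ifit3b, and none of the 4 was called (edgeR, adjusted p = 0.094, 0.18, 0.50 and 0.52). With a term for the set added to these sums, Ifit2 alone was called (adjusted p = 0.021). Without the 5 libraries that stood apart all 4 stayed called, at 1.53, 1.17, 1.18 and 1.28 (adjusted p = 2.3e-05, 0.00020, 0.016 and 0.026). The share of all tested genes called in these fits is not given here, so these calls are not set against other genes.

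**Figure D3:**
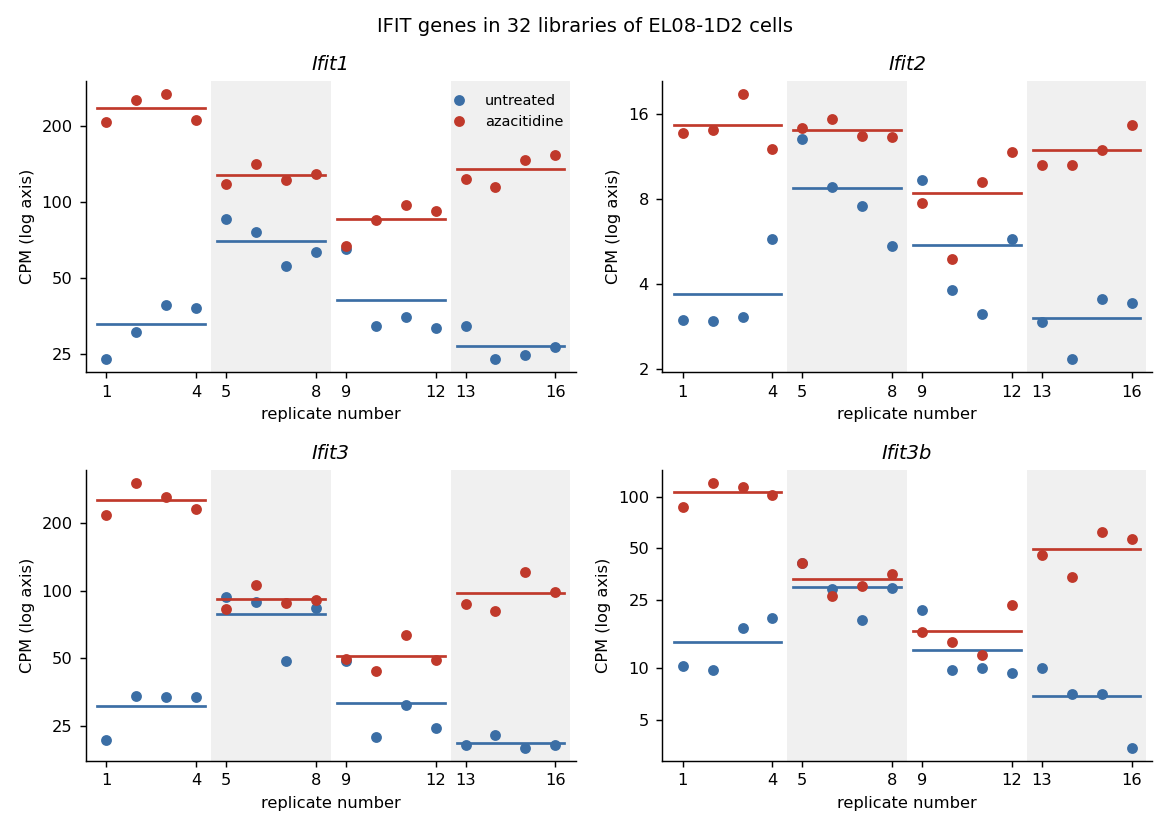
CPM of each IFIT gene in every library (log axes) by replicate number, untreated in blue and with azacitidine in red. Lines mark the mean of each set of 4 numbers. The groups are far apart in numbers 1 to 4 and 13 to 16, while in numbers 5 to 8 the untreated values of Ifit3 and Ifit3b reach those with azacitidine.

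The size of the rise differed between the sets of 4 numbers. In numbers 1 to 4 Ifit1 had 23.9, 30.5, 39.2 and 38.2 CPM untreated and 207, 254, 268 and 213 CPM with azacitidine. Ifit3 had 21.6, 33.9, 33.7 and 33.6 CPM untreated and 218, 301, 261 and 229 CPM with azacitidine. Neither gene's groups came near each other in these libraries. The log2 changes in this set were 2.89 for Ifit1 (SE 0.17), 2.08 for Ifit2 (SE 0.27), 3.08 for Ifit3 (SE 0.18) and 3.03 for Ifit3b (SE 0.23), all called (edgeR, highest adjusted p = 2.7e-07). In this contrast 4.68% of tested genes were called higher and 5.66% were higher without overlap. This set holds the 5 libraries that stood apart. Without them the 4 changes were 2.79, 2.21, 2.96 and 2.65, from 2 untreated and 1 azacitidine library, whose spread is taken from the other sets (highest adjusted p = 0.0031). Totals in this set were 818619 to 3210801 UMIs untreated and 2058202 to 5039721 with azacitidine. With every library thinned to 818619 UMIs the changes were 2.74 for Ifit1, 3.25 for Ifit3 and 2.86 for Ifit3b, and Ifit2 was too rare to test.

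In numbers 13 to 16 all 4 genes rose as well. Ifit1 had 32.4, 23.9, 24.8 and 26.6 CPM untreated and 124, 115, 147 and 153 CPM with azacitidine. Ifit3b had 10.0, 7.06, 7.08 and 3.44 CPM untreated and 45.5, 34.2, 62.2 and 56.5 CPM with azacitidine. None of the 4 genes' groups overlapped in this set. The log2 changes were 2.32, 1.96, 2.21 and 2.78 for Ifit1, Ifit2, Ifit3 and Ifit3b (SE 0.18, 0.32, 0.21 and 0.29), all called, where 1.9% of tested genes were called higher and 4.6% were higher without overlap. Between the first and last sets none of the 4 changes was called different (edgeR, lowest adjusted p = 0.34), in a contrast where 0.0321% of genes were called. The differences were 0.57 (SE 0.25), 0.11 (SE 0.48), 0.87 (SE 0.29) and 0.25 (SE 0.42), so they were not shown to be equal.

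In numbers 5 to 8 and 9 to 12 the rise was small, and Ifit1 was the only IFIT gene called. In numbers 5 to 8 Ifit1 had 85.8, 75.9, 55.7 and 63.7 CPM untreated and 118, 142, 122 and 130 CPM with azacitidine, without overlap. Its log2 change was 0.85 (SE 0.16, adjusted p = 0.00033), where 2.64% of tested genes were called higher and 5.9% were higher without overlap. Ifit3 had 93.5, 88.6, 48.7 and 83.9 CPM untreated and 82.6, 105, 87.6 and 90.8 CPM with azacitidine, so its groups overlapped. The log2 changes of Ifit2, Ifit3 and Ifit3b in this set were 0.65 (SE 0.24, adjusted p = 0.12), 0.22 (SE 0.17, 0.63) and 0.14 (SE 0.23, 0.87). Ifit2 did not overlap there, at 5.44 to 13.0 CPM untreated and 13.3 to 15.4 with azacitidine, and without untreated number 5 it was called (0.91, adjusted p = 0.039). Without untreated number 7 the value of Ifit3b was -0.030.

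In numbers 9 to 12 Ifit1 had 65.4, 32.1, 35.1 and 31.7 CPM untreated and 67.2, 84.7, 97.5 and 92.4 CPM with azacitidine. The untreated library number 9 lay close under the lowest azacitidine value and was high for all 4 genes. The log2 change of Ifit1 was 1.14 (SE 0.18, adjusted p = 0.00011), where 0.92% of tested genes were called higher and 3.53% were higher without overlap. Ifit2, Ifit3 and Ifit3b overlapped, with log2 changes of 0.74 (SE 0.32, adjusted p = 0.42), 0.78 (SE 0.22, 0.079) and 0.48 (SE 0.32, 0.72). Without untreated number 9 the change of Ifit3 was 0.99 and passed the test (adjusted p = 0.0078). Scaled by the spike-in RNAs, Ifit1 was at 1.13 in numbers 5 to 8 and at 0.97 in 9 to 12, and neither passed the test (adjusted p = 0.48 and 1.00). That scaling rests on only 802 to 3753 spike-in UMIs per library, and the share of all genes called under it is not given. Ifit1 was higher without overlap in each of the 4 sets, as were 0.621% of all tested genes.

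**Figure D4:**
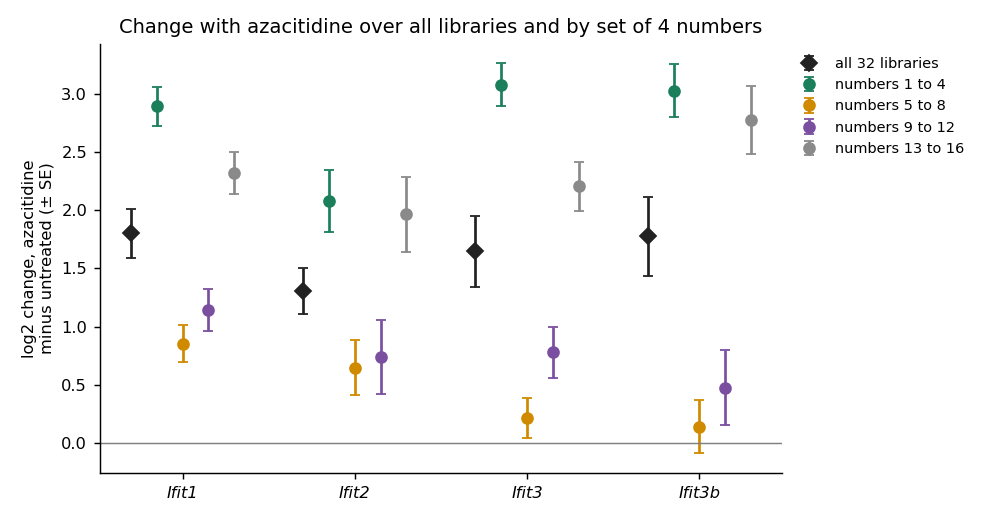
Log2 change with azacitidine (± SE, edgeR) of each IFIT gene over all 32 libraries (black diamonds) and in each set of 4 replicate numbers (coloured points). Numbers 1 to 4 and 13 to 16 lie at 1.96 or above for every gene, and numbers 5 to 8 and 9 to 12 at 1.14 or below.

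A test of the difference itself, the interaction of set and azacitidine, was called for all 4 genes (edgeR, adjusted p = 2.3e-07, 0.029, 8.1e-09 and 2.2e-07 for Ifit1, Ifit2, Ifit3 and Ifit3b), against 3.02% of tested genes. For Ifit2 it was not called without the 5 libraries that stood apart (0.10) or with spike-in scaling (0.50). The change in numbers 1 to 4 exceeded that in numbers 5 to 8 by 2.04, 1.43, 2.86 and 2.89 on the log2 scale, and all 4 differences were called, as were 3.98% of those of all genes. Against numbers 9 to 12 the excess was 1.75, 1.34, 2.30 and 2.55, called for Ifit1, Ifit3 and Ifit3b (0.931% of genes called). The change in numbers 13 to 16 exceeded that in numbers 5 to 8 by 1.47, 1.32, 1.99 and 2.64, called for the same 3 genes (1.76%). Against numbers 9 to 12 its excess was called for Ifit3b alone (2.30, adjusted p = 0.029, 0.0642%). The change in numbers 9 to 12 minus that in 13 to 16 was -1.18, -1.23 and -1.43 for Ifit1, Ifit2 and Ifit3 (SE 0.26, 0.47 and 0.31). These went the same way and were not called (adjusted p = 0.083 for Ifit1 and for Ifit3). Between numbers 5 to 8 and 9 to 12 no difference in the change was called for any of the 4 genes (0.952%). The lowest adjusted p was 0.60, for Ifit3 at -0.56 (SE 0.28).

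Levels differed between sets within each group as well. Untreated levels differed between sets for all 4 genes (edgeR, highest adjusted p = 0.0027, 13.9% of genes called). The 4 genes summed to 81.6 ± 17.5, 187 ± 43.0, 91.0 ± 36.6 and 57.9 ± 5.44 CPM (SD, n = 4) in the untreated sets, in the order of their numbers. Numbers 5 to 8 were thus highest without the drug. They exceeded numbers 1 to 4 by 1.16, 1.41, 1.40 and 1.2 on the log2 scale (highest adjusted p = 0.0057, 6.89% of genes called) and numbers 13 to 16 by 1.39, 1.57, 1.90 and 2.04 (highest adjusted p = 0.0028, 6.15% called). They exceeded numbers 9 to 12 by 0.86, 0.86, 1.39 and 1.35, called for Ifit1, Ifit3 and Ifit3b and not for Ifit2 (adjusted p = 0.14, 3.91% called). Among untreated numbers 1 to 4, 9 to 12 and 13 to 16 none of the 4 genes was called. All genes gave 7.72% calls between the first 2 of these sets, 6.65% between the first and the last, and 1.06% between the last 2.

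With azacitidine the sum was 608 ± 79.1, 267 ± 16.3, 162 ± 20.6 and 293 ± 47.8 CPM (n = 4), and levels again differed between sets for all 4 genes (highest adjusted p = 0.022, 49.6% of genes called). Numbers 1 to 4 were highest and 9 to 12 lowest, with differences of 1.45, 0.79, 2.30 and 2.70 between them (highest adjusted p = 0.0068, 39.7% called). Numbers 1 to 4 also exceeded 5 to 8 and 13 to 16 for Ifit1, Ifit3 and Ifit3b but not for Ifit2 (42.5% and 35% called). Numbers 5 to 8 were above 9 to 12 for all 4 genes (7% called), and 13 to 16 were above 9 to 12 for all but Ifit2 (1.9%). Between numbers 5 to 8 and 13 to 16, neighbours in this order, no difference was called for any of the 4 genes (8.13% called). Ifit3b came closest, at -0.60 (SE 0.21, adjusted p = 0.077) for numbers 5 to 8 minus 13 to 16. The changes from untreated in these sets were far apart. Between these sets the untreated levels differed and the azacitidine levels were not shown to.

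The 4 genes moved together from library to library. After removal of group means, Pearson's r of log2 CPM over the 32 libraries was 0.96 between Ifit1 and Ifit3, 0.92 between Ifit3 and Ifit3b, 0.91 between Ifit1 and Ifit3b, and 0.81, 0.71 and 0.70 between Ifit2 and Ifit1, Ifit3 and Ifit3b. With the means of the sets removed as well, the same pairs gave 0.81, 0.55, 0.67, 0.64, 0.44 and 0.50. These are descriptions, since the values of a library share its depth and set. No r of pairs outside the family is given for comparison. With set means removed, genes outside the family reached up to 0.77 with the mean of the 4 genes (Ascc2).

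**Figure D5:**
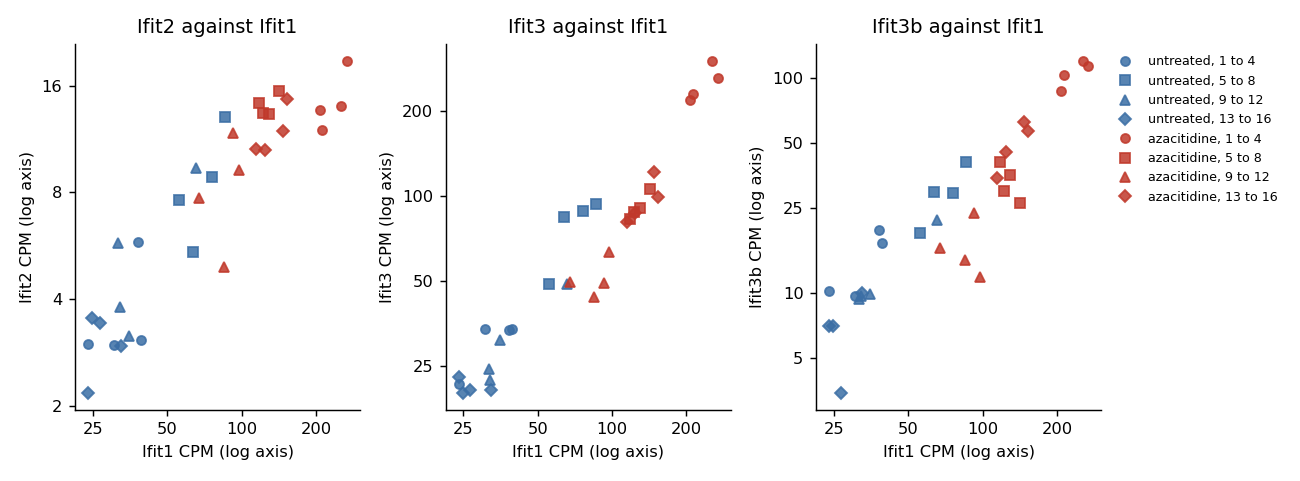
CPM of Ifit2, Ifit3 and Ifit3b against that of Ifit1 in the 32 libraries (log axes), with colour for the group and shape for the set of 4 numbers. The azacitidine libraries of numbers 1 to 4 lie at the top right of each panel, and untreated numbers 5 to 8 lie beside or between the groups.

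The shares of the 4 genes in the family's UMIs were as follows. Ifit1 took 42.5% ± 4.22 of the family's UMIs untreated and 46.4% ± 5.66 with azacitidine (SD, n = 16). The share of Ifit3 was 37.8% ± 4.24 and 35.2% ± 4.41, that of Ifit3b 14.6% ± 3.18 and 14.2% ± 3.67, and that of Ifit2 5.13% ± 1.38 and 4.23% ± 1.37. These differences are within 1 SD and were not tested. Within sets some shares did not overlap. In numbers 5 to 8 Ifit1 took 34.9 to 42.5% untreated and 46.1 to 49.1% with azacitidine, and Ifit3 37.2 to 46.0% and 32.3 to 36.5%. In numbers 9 to 12 Ifit1 took 44.4 to 47.2% untreated and 47.8 to 57.4% with azacitidine. In the azacitidine libraries of numbers 1 to 4, where the sum was highest, Ifit2 took 2.41% ± 0.38 (n = 4), with a highest value of 2.84%. Untreated libraries of that set gave 4.54% ± 1.2, with a lowest value of 3.29%. UMI shares depend on how reads were assigned to genes, which is not stated, and are not used to rank the genes.

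Ifit3 and Ifit3b could not be fully separated by sequence. Their annotated transcripts of 1745 and 2000 bases were identical at 97.82% of 1700 aligned positions, and 51.2% of the 50-base stretches of Ifit3 also occur in Ifit3b. In the last 500 bases, 14.9% of such stretches of Ifit3 occur anywhere in Ifit3b and 0% the other way. No 50-base stretch was shared between Ifit1, Ifit2 and either of these. How reads matching both copies were assigned is not stated in the sources used here, so the 2 rows are uncertain as separate values. Added together they rose by 1.67 (SE 0.31, edgeR, adjusted p = 0.00050), with changes of 3.05, 0.20, 0.69 and 2.38 in the 4 sets. Ifit3b made up 27.8% ± 5.43 of the pair untreated and 28.5% ± 5.45 with azacitidine.

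Genes outside the family were ranked for likeness by Pearson's r with the mean of the 4 genes over the 32 libraries, after removal of group means. The first 10 of 9340 were Usp18 (0.90), which dampens interferon receptor signalling, Irf9 (0.89), the DNA-binding subunit of the complex that acts on the response element, Rtp4 (0.89), a chaperone of receptors with antiviral activity, Ifi35 (0.88), Irgm1 (0.87) and Irgm2 (0.83), which are immunity-related GTPases, Lgals3bp (0.87), a secreted galectin-binding glycoprotein, Apol9a (0.85), Gbp3 (0.85), a guanylate-binding protein, and Isg15 (0.85), a ubiquitin-like modifier. The median r of the 9340 genes was 0.01, and their 99th percentile was 0.58. All 10 were called higher with azacitidine, at log2 changes from 0.61 for Ifi35 to 1.71 for Isg15. Usp18, for example, changed by 2.69, 0.71, 1.00 and 2.13 in the 4 sets, and Isg15 by 2.89, 0.49, 0.83 and 2.31. With the means of the sets also removed, none of these 10 was among the first 10, which were led by Ascc2 at 0.77. Of the 10, Isg15 then had the lowest r (0.053) and Irgm2 the highest (0.65). Of 8 of them with a promoter window, 5 held the response element (Apol9a, Gbp3, Irgm1, Irgm2 and Isg15) and 4 held it 2 or more times.

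Over all tested genes outside the family that had a window, 3.17% of 6697 without a match, 15.2% of 264 with at least 1 match and 55% of 20 with 2 or more matches were called higher. Their median log2 changes were 0.00, 0.06 and 0.56. A match is a run of letters and not a measured binding site.

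Transcripts of Ifnb1 and Ifne, the listed interferon genes with a row, were almost absent. Of 20 listed interferon genes 2 had a row, and the others were not analysed here. Ifnb1, interferon beta, had 0 UMIs in 27338586 untreated UMIs, which allows up to 0.110 CPM by counting error alone, and 2 UMIs in 38348576 with azacitidine. Ifne, interferon epsilon, had 1 UMI untreated and 0 with azacitidine, which allows up to 0.0782 CPM. Neither could be tested.

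Among 13 sensors of double-stranded RNA and their adaptors, 5 rose and none fell, with a median log2 change of 0.33 over the list. The risen genes were the helicase sensors Dhx58 (1.70, adjusted p = 1.5e-05), Ifih1, which encodes MDA5 (1.15), and Ddx58, which encodes RIG-I (0.69), the nucleic acid sensor Zbp1 (1.47), and Trim25, a ubiquitin ligase of the RIG-I pathway (0.40, adjusted p = 0.014). Mavs, the mitochondrial adaptor that passes the signal of RIG-I and MDA5 on, was at -0.04 and Tbk1, the kinase below it, at 0.19, and neither passed the test. The interaction of set and azacitidine was called for 3 of the 13, against 3.02% of all tested genes. Over all tested genes 3.65% were called higher with azacitidine and 2% lower.

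In the interferon receptor, STAT and IRF list, 5 of 14 tested genes rose and none fell (median 0.15). Among them were Usp18 (1.65), Irf7, a transcription factor that amplifies interferon production (1.49), Irf9 (0.72) and the signal transducer Stat2 (0.48, adjusted p = 7.1e-05). The interaction of set and azacitidine was called for all 5, against 3.02% of all tested genes. Calls over all tested genes were 3.65% higher and 2% lower. Irf3, which can act on IFIT genes directly, was at 0.21 (adjusted p = 0.39), the receptor subunits Ifnar1 and Ifnar2 at -0.16 and 0.13, and the kinase Jak1 at -0.17 (adjusted p = 0.063). With UMIs summed over sets none of the sensors or signalling genes was called, and the share of all genes called there is not given.

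Of 34 other interferon-induced antiviral effectors 22 were tested, 16 rose and none fell (median 0.70). In order of p these began with Rtp4 (1.62), Ifi27, a small membrane protein (0.62), Herc6, the main ligase for Isg15 in mice (1.07), and Isg15 (1.71). Herc6 gave no called interaction with the set (adjusted p = 0.77), with changes of 1.07, 1.00, 0.80 and 1.48. Whether it differs from the IFIT genes in this was not tested. Effectors left out as too rare included Rsad2, which encodes viperin, with 66 UMIs untreated and 404 with azacitidine, and Oasl1, with 19 and 326. Without the filter on low counts 25 effectors were called, and with UMIs summed over sets 2. The share of all genes called in these fits is not given. In the main test 3.65% of tested genes were called higher and 2% lower.

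Genes of eIF3, of cap enzymes and of other tetratricopeptide proteins were listed as well. Over all tested genes 3.65% were called higher and 2% lower, so lists of this size would hold few calls in any case. None of 14 subunits of eIF3, the translation initiation factor that mouse Ifit1 and Ifit2 bind, was called (median -0.02). At an unadjusted p under 0.05 there were 2, Eif3h (-0.21) and Eif3k (-0.17), both lower, and DESeq2 called 1 lower. The share of all genes that DESeq2 called is not given. None of 6 enzymes of cap synthesis and methylation was called (median 0.07), none had an unadjusted p under 0.05 and DESeq2 called none. Among them is Cmtr1, which places the ribose methyl group that Ifit1 senses (0.18, adjusted p = 0.65). Of 34 tested genes of other tetratricopeptide proteins only Ttc27 was called (-0.29, adjusted p = 0.019).

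The line carried the transcripts of stromal cells. Of 9 stromal markers 8 were tested, and their summed level lay between 9198 and 12266 CPM untreated and between 6444 and 10623 CPM with azacitidine. Col3a1 (-0.65), Col1a2 (-0.39) and Col1a1 (-0.37), which encode fibrillar collagens, were lower with azacitidine and the adhesion molecule Vcam1 was higher (0.20). Thy1 had 0 UMIs untreated and 26 with azacitidine.

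Of 12 listed blood cell markers 9 had a row and 1 was tested. Their summed level lay between 7.63 and 24.1 CPM untreated and between 16.2 and 30.8 CPM with azacitidine. Cd53, the tested one, a tetraspanin of white blood cells, went from a mean of 7.33 to 13.99 CPM (log2 change 0.92, called higher), with r = -0.25 with the mean of the IFIT genes. The pan-leukocyte gene Ptprc had 1 UMI untreated and 4 with azacitidine, and Spi1 and Adgre1 0 and 1 each. Itgam had 143 and 161 UMIs (means 5.56 and 4.41 CPM), Csf1r 26 and 45, Cd74 19 and 86, Fcer1g 4 and 65, and Lyz2 14 and 12. Endothelial markers had 3 UMIs untreated and 16 with azacitidine in all. The 5 epithelial markers summed to 2.88 to 9.78 CPM untreated and 71.1 to 147 CPM with azacitidine, through the keratins Krt8, Krt18 and Krt19, while Epcam had 0 and 1 UMIs. The part of these markers in the IFIT result was not tested.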

How the data were processed

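EL08-1D2 cells gave 16 untreated and 16 azacitidine libraries, grouped by the treatment label. Per the labels' protocols, RNA was made into barcoded cDNA with molecular identifiers, pooled and amplified, and a transposase kit took 800 pg of that cDNA. Per the submitters' processing notes, STAR 2.4.0 and bedtools 2.17.0 were used with the build mm10. The annotation, strand setting and treatment of reads that match several genes are not given in the sources used here. The deposited values are counts, whole numbers of UMIs that carry no sign of scaling by the authors.

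Of 21897 lines, 68 spike-in RNAs (0.106% of UMIs) stayed out of library sizes and tests. Identifiers were matched to GENCODE M21, which named 21506 of 21829 mouse genes. The main test was edgeR 4.0.16 (robust quasi-likelihood, TMM, default filter by group, two-sided, Benjamini-Hochberg over all 9344 tested genes, called under 0.05), which kept 98.8% of counts. Totals ran from 818619 to 5039721 UMIs per library, and the UMI count of a gene limits the precision of its CPM. Changes within sets of 4 numbers, their interaction and differences between sets came from 1 model with a mean per group and set. The pairwise and between-set tests were added after the values were seen. CPM use total UMIs of mouse genes multiplied by the TMM factor, except the limits for Ifnb1 and Ifne, which use plain totals. Pearson's r uses log2 CPM with a prior count of 2. No 2 libraries of a group agreed within sampling noise (lowest chi-square per degree of freedom 1.11). The same scripts were tested on simulated data.

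The members, gene lists and tests were chosen with earlier results of these data known. Named were the 4 genes, the 10 most like them, up to 4 called genes of each list in order of p, listed genes with a role in the pathway, and neighbours within 500 kb. Trim25, Stat2, Ifnar2, Tbk1, Mavs, Rsad2, Oasl1, the eIF3 genes, the markers and Ascc2 were named after their values were seen. Alternatives were other scalings, filters and tests (DESeq2 1.42.0, limma 3.58.1), thinning, terms for or sums over sets, and leaving out libraries or sets. The thinned values by set, and those of the first set without 5 libraries, were added after seeing the data. R 4.3.3, Python 3.11.15, numpy 2.4.6, pandas 2.3.3, matplotlib 3.10.9 and Biopython 1.88 were used. Promoters are from RefSeq, and all 4 genes matched. Protein sequences were not used here. A listed gene that the rule took is not reported here.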

Additional observations from a re-analysis of the deposited data

Results flagged for a closer look

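Among 32 sets of 4 libraries of a gene and group, 4 held a library far from the other 3, and chance alone flags about 1 in 20. Untreated number 9 was highest in numbers 9 to 12 for Ifit1, at 65.4 CPM with the next library at 35.1, and for Ifit3b, at 21.8 CPM with the next at 9.95. In the untreated libraries of numbers 1 to 4, Ifit2 was highest in number 4, at 5.79 CPM with the next at 3.07, from 5 UMIs each. In the same libraries Ifit3 was lowest in number 1, at 21.6 CPM with the next at 33.6.

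The change with azacitidine differed between the sets of 4 replicate numbers for all 4 genes (edgeR interaction test, adjusted p = 2.3e-07 for Ifit1, 0.029 for Ifit2, 8.1e-09 for Ifit3 and 2.2e-07 for Ifit3b). What the sets stand for is not in the labels.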

How the results depend on the processing

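Over the alternatives run, the log2 change of Ifit1 lay between 1.36 and 2.22, of Ifit2 between 1.05 and 1.65, of Ifit3 between 0.91 and 2.32 and of Ifit3b between 1.05 and 2.46, always positive. Calls were lost in 3 settings, for which the share of all genes called is not given, and the cause was not tested. With sums over sets the values were 1.80, 1.28, 1.64 and 1.75, with 0 of 4 called. With sums and a set term Ifit1, Ifit3 and Ifit3b were at 1.80, 1.57 and 1.63 and not called (adjusted p = 0.25, 0.43 and 0.46), leaving 1 called. Without numbers 1 to 4, Ifit3 (0.91) and Ifit3b (1.05) were not called (adjusted p = 0.054 and 0.065), leaving 2. Spike-in scaling rests on 802 to 3753 spike-in UMIs per library, and the share of all genes called with it is not given. It moved the median of all genes by 0.31. Under it Ifit1 was at 1.13 in numbers 5 to 8 and 0.97 in numbers 9 to 12 (adjusted p = 0.48 and 1.00), and the interaction for Ifit2 was at 0.50. Without the 5 libraries that stood apart the latter was at 0.10. Without a filter Ifit3 was called in numbers 9 to 12 at 0.77. Thinning left Ifit2 too rare to test.

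Leaving out 1 library at a time, Ifit2 in numbers 5 to 8 ranged from 0.50 to 0.91 and was called without untreated number 5. Ifit3b there ranged from -0.030 to 0.35 and turned negative, at -0.030, without untreated number 7. Ifit3 in numbers 9 to 12 ranged from 0.62 to 0.99 and was called without untreated number 9. No other call within a set changed.

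For the list counts below, the share of all genes called in each setting is not given. They are therefore not set against other genes. Of the sensors 0 rose with sums, 1 with sums and a set term, 3 with limma-voom and an estimated correlation, and 2 after thinning. Signalling genes that rose were 0 and 1 with the sums, and 1 fell with a replicate block, a set term or thinning. Effectors that rose were 2 with sums, 25 without a filter and 10 after thinning. For eIF3, 1 fell with a replicate block, with DESeq2, and without the 5 libraries, numbers 1 to 4 or numbers 5 to 8, and 2 fell with a set term. In the tetratricopeptide list 1 rose with a replicate block, a set term, and without the 5 libraries or numbers 1 to 4. There 2 fell with a set term and 0 with the sums, spike-in scaling, limma-voom with correlation, thinning, without numbers 9 to 12 or 13 to 16, at 0.01, and against a 1.2-fold change. Of the stromal markers 0 rose in those last settings except thinning, and 2 without a filter. Of them 0 fell with sums and spike-in scaling, and 1 with sums and a set term, without numbers 5 to 8, and against a 1.2-fold change. Blood markers that rose were 3 without a filter and 0 after thinning.

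Replicate numbers paired the libraries weakly at most. Same-numbered libraries correlated at -0.29 to 0.83, with a median of 0.18 against -0.01 for other pairs. Of the 16 pairs 12 were over 0.1, and 4 of 16 untreated and 3 of 16 azacitidine libraries correlated best with their own number. Whether this follows the number or the set was not tested. With the replicate number as a block the 4 changes were 1.79, 1.31, 1.57 and 1.66, all called. Depth limits Ifit2 most, at 4 to 22 UMIs in an untreated library.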
